A study of Mus musculus with 25 samples.

Results

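The genes described here encode voltage-gated sodium and calcium channels, potassium channels and the CLC family of chloride channels and transporters, with their auxiliary subunits. All probe sets on the arrays were taken whose only annotated gene symbol begins with Kcn, with Scn or Clcn and a digit, or with Cacna, Cacnb or Cacng. That rule found 184 probe sets of 110 genes among 36701 non-control probe sets, with 85 probe sets on the U74Av2 array, 49 on U74Bv2 and 50 on U74Cv2. It used gene names alone and no measured value. By symbol, 14 probe sets belonged to calcium pores, 19 to calcium auxiliary subunits, 17 to sodium pores, 5 to sodium auxiliary subunits and 15 to CLC chloride proteins. Among the potassium probe sets, 44 belonged to voltage-gated pores, 25 to inward rectifiers, 12 to tandem-pore leak channels, 15 to calcium- or sodium-activated channels and 15 to auxiliary subunits. The remaining 3 were non-coding RNAs named after potassium channel genes. Cacnb3, Scn4a (the skeletal muscle sodium pore) and Kcnn3 were not analysed here.

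Voltage-gated channels open when the membrane depolarises and carry the currents of the action potential. In skeletal muscle the L-type calcium channel is built from the Cacna1s pore with the Cacnb1, Cacna2d1 and Cacng1 subunits, and it acts as the voltage sensor that triggers calcium release from the sarcoplasmic reticulum. Potassium channels set the resting potential, and in human myoblasts hyperpolarisation through Kcnh1 and Kcnj2 channels precedes fusion. CLC proteins comprise plasma membrane chloride channels, such as the muscle channel Clcn1, and chloride-proton exchangers of endosomes and lysosomes.

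The cells were growing myoblasts from mouse skeletal muscle satellite cells, the stem cells of muscle, of 3 genotypes: wild type, MyoD-/- (without the myogenic transcription factor MyoD) and p53-/- (without the tumour suppressor p53). They were purified by preplating and serial passage to over 98% purity and grown on collagen in HAM medium holding 20% serum (fetal calf) and basic fibroblast growth factor at 4 ng/ml. Purity was judged by Desmin, Myf5 and MyoD in wild type and by Myf5 and c-met in the knockouts. There were 3 samples per genotype, lettered A, B and C, on 25 arrays: all 9 samples were measured on U74Av2 and U74Cv2, and 7 on U74Bv2, where p53-/- had sample A alone. The labels give no age and do not say whether the letters are separate mice or cultures, so the tests weigh differences against a spread among samples that may be technical.

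Signals are Affymetrix MAS5 values, with a trimmed mean near 1500 on each array. They have an arbitrary unit and allow a probe set to be compared between samples but not with another probe set. The median signal of an array was 462 to 564 for type U74Av2, 730 to 776 for U74Bv2, and for U74Cv2 it was 455 to 546. The Myod1 probe set read 37440, 40170 and 45190 in wild type, 5352, 4024 and 5152 in MyoD-/- and 23450, 24450 and 18500 in p53-/-. Whether it lies in the deleted part of the gene is not stated in the sources used here, and Trp53 was not analysed here. Summed over 7 differentiated muscle markers on U74Av2 and U74Cv2, signals were 68290 to 97430 in wild type, 2588 to 7318 in MyoD-/- and 31600 to 39620 in p53-/-. Such a sum mostly follows its brightest probe sets. Here that was Chrna1, which read 58410, 47070 and 44300 in wild type and 28520, 21910 and 37170 in p53-/-. By the limma test described below, Chrna1 had a log2 fold change of -0.79 (adjusted p = 0.365) in p53-/- minus wild type. Myh3, Tnnt3, Acta1 and Tnnc1 were called lower there, at -4.33, -4.05, -3.82 and -2.62, and Myog and Ckm were not called. Myh3 passed the filter on low signals through its wild type arrays alone. For Tnnt3, 3 wild type arrays and 1 p53-/- array were above the filter level. For 8 myoblast markers the sums were 60460 to 68880 in wild type, 22080 to 29290 in MyoD-/- and 37560 to 47200 in p53-/-. Myod1, 1 of these markers, made up most of each wild type sum. By the same test, 5 of the 8 genes were lower in MyoD-/- than in wild type, Myod1 included. Myf5 and Vcam1 were higher. Other marker sums were 13280 to 15460, 15010 to 30780 and 12090 to 18070 for 11 neuron and glia genes, and Snap25, Syt1 and S100b did not pass the filter on low signals. Of the 8 tested, 1 was called higher in MyoD-/- than in wild type (Gap43) and 1 lower (Stmn2, -0.83). Gap43 read 261, 273 and 383 in wild type and 553, 9694 and 14720 in MyoD-/-, so its level varied widely within MyoD-/-. In p53-/- 1 was called higher (Stmn2, 1.38). For 8 fibroblast genes the sums were 5706 to 6305, 10880 to 11820 and 4571 to 6566, with Thy1, Dcn, Lum and Fap below the filter. Of the 4 tested, Col1a1 and Twist2 were called higher in MyoD-/- than in wild type (2.26 and 1.99). Pdgfra and Col1a2 were not called (-0.08 and -0.07). Smooth muscle genes summed to 5738 to 19990, 13680 to 27170 and 2400 to 3253, with Cnn1 below the filter and Myh11 below it on these array types. On U74Bv2, Myh11 read 1418 to 1576 in wild type, 1751 to 2035 in MyoD-/- and 1682 in p53-/- A. Endothelial sums stayed at or under 1047 and macrophage sums at or under 1159 in every sample. The endothelial genes Cdh5, Kdr, Tek and Emcn and the macrophage genes Ptprc, Itgam, Adgre1 and Lyz2 were below the filter. The part of these differences in the channel results was not tested. In such bulk samples fewer cells of a type and less RNA per cell cannot be told apart.

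Testing needed 3 or more arrays above their own 40th percentile, and 85 of the 184 channel probe sets (46.2%) passed, against 64.4% of all probe sets. The 85 covered 65 genes. Differences are log2 fold changes of signal plus the 20th percentile of the array type, fitted with limma, given with the standard error (SE, n = 3 samples per genotype unless stated), and called at a Benjamini-Hochberg adjusted p under 0.05 over all probe sets tested. The added percentile makes the fold changes of dim probe sets smaller than the ratio of their signals.

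In MyoD-/- against wild type myoblasts, 13 of 85 channel probe sets were called, 2 higher and 11 lower, in 9 genes. Over all 23636 probe sets tested, 10.6% were called, 4.98% higher and 5.66% lower. The genes that fell were the skeletal muscle calcium channel subunits Cacna1s, Cacnb1 and Cacng1, with Cacng4, the sodium pore Scn9a, and the endosomal exchangers Clcn3 and Clcn5. Those that rose were Cacnb2 and the leak channel Kcnk2. The median log2 fold change was -0.09 over the 85 and -0.004 over all probe sets. For 22 of the 85 the MyoD-/- arrays did not overlap the wild type arrays (7 higher, 15 lower), against 29% of all probe sets.

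In p53-/- against wild type, 5 of the 67 channel probe sets tested on U74Av2 and U74Cv2 were called, all lower: Cacna1s, Cacnb1, Scn9a and 2 probe sets of Clcn4. The share called was 10.1% of all 15767 probe sets, 4.79% higher and 5.35% lower. The median was -0.27 over the 67 and -0.024 over all. For 17 of the 67 the arrays did not overlap (1 higher, 16 lower), against 30.9% of all probe sets. This comparison shares the wild type arrays with the one above. Tested directly against each other, MyoD-/- and p53-/- differed in 7 of 67 channel probe sets, 4 higher and 3 lower in MyoD-/-, where 13% of all probe sets were called (6.2% higher and 6.77% lower). Their arrays did not overlap for 15 channel probe sets (10 higher, 5 lower in MyoD-/-), against 30.7% overall.

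**Figure D1:**
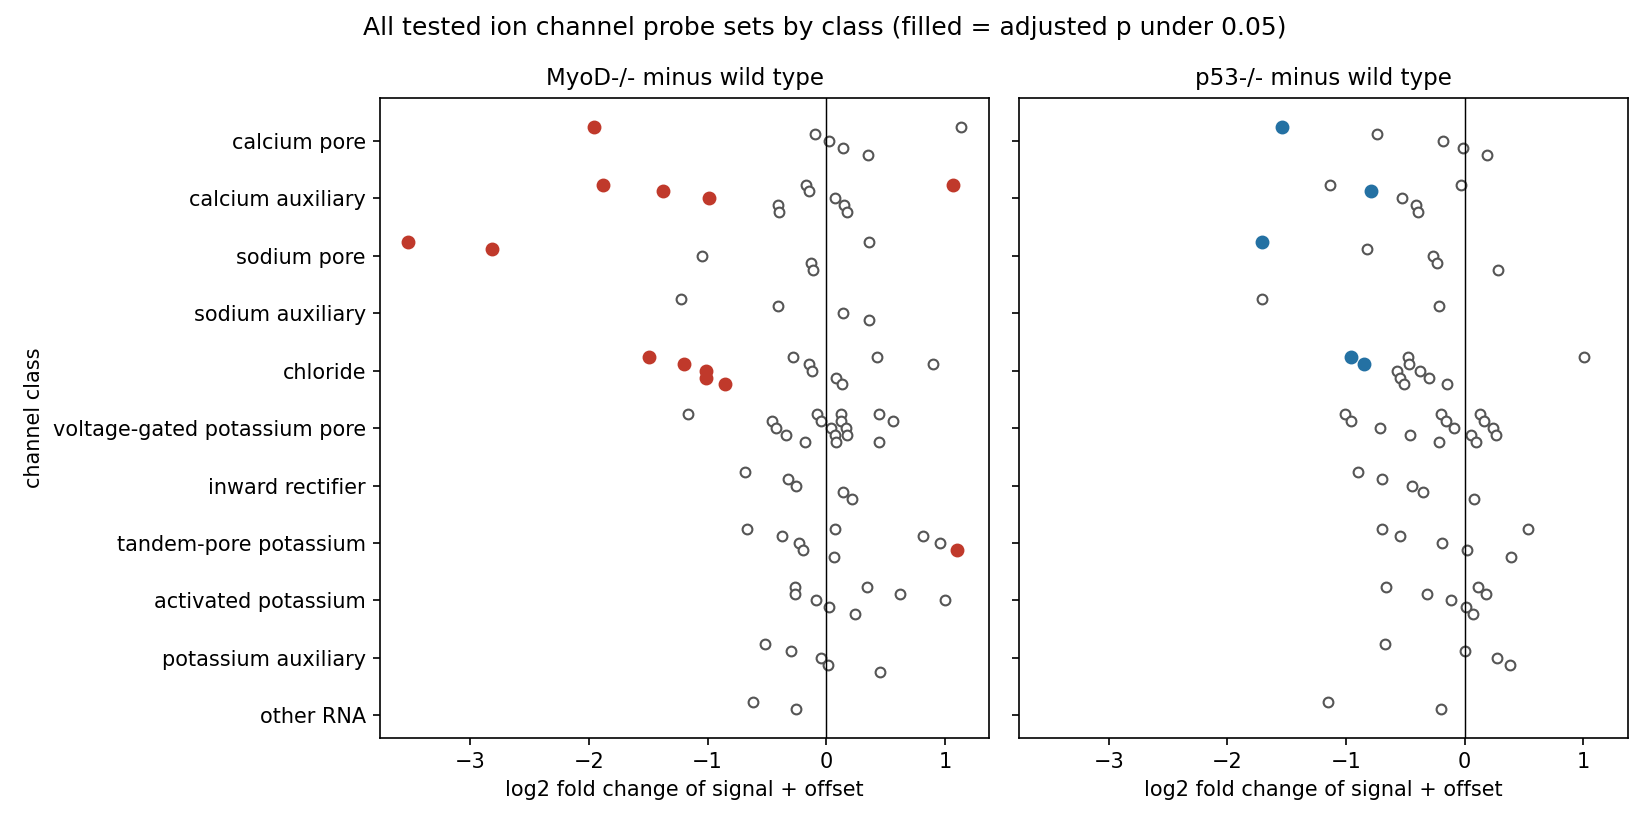
Log2 fold change of signal plus offset (horizontal axis) of each tested channel probe set, by class (vertical axis), in MyoD-/- minus wild type (left, 85 probe sets) and p53-/- minus wild type (right, 67 probe sets). Filled points passed an adjusted p under 0.05: they lie in calcium, sodium and chloride classes and, with Kcnk2 alone, in the tandem-pore potassium class.

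Among calcium pores, 6 of 14 probe sets were tested. Cacna1s, the skeletal muscle L-type pore on chromosome 1 (probe set 101128_at on U74Av2), read 456, 656 and 415 in wild type, 41.5, 62.3 and 156 in MyoD-/- and 125, 271 and 47.0 in p53-/-. Every knockout array lay below every wild type array. The fold change was -1.96 ± 0.43 (adjusted p = 0.0148) in MyoD-/- and -1.54 ± 0.43 (adjusted p = 0.0453) in p53-/-, and -0.42 ± 0.43 (adjusted p = 0.604) between the knockouts. This probe set passed the filter through its wild type arrays alone. Without wild type A, B or C it had fewer than 3 arrays above the filter level and was not tested. Its calls could therefore be checked under 16 of 20 alternatives, none of which left out a wild type sample. The MyoD-/- call was lost without MyoD-/- B (adjusted p = 0.0553). The p53-/- call was lost without MyoD-/- B, p53-/- A or p53-/- C (adjusted p = 0.0591, 0.113 and 0.128). It was also lost with an offset of 1 (0.088) and with signals floored at the 20th percentile in place of the offset (0.0562). The same held without the filter (0.061) and with the sample letter as a block (0.0618). MyoD-/- A was scanned on another day than the other U74Av2 arrays. Within the shared day the Cacna1s difference was -1.74, and with scan day as a block its adjusted p was 0.0553.

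Cacna1c, the L-type pore known from heart and smooth muscle (chromosome 6), had 2 tested probe sets that differed. Probe set 137133_s_at on U74Cv2 read 286, 315 and 254 in wild type, 724, 961 and 614 in MyoD-/- and 81.5, 312 and 55.9 in p53-/-. The MyoD-/- arrays were above all others, and p53-/- B lay among the wild type values. MyoD-/- exceeded p53-/- by 1.88 ± 0.39 (adjusted p = 0.0102), whereas MyoD-/- minus wild type was 1.14 ± 0.39 (adjusted p = 0.0956) and p53-/- minus wild type -0.74 ± 0.39 (adjusted p = 0.273). MyoD-/- minus wild type was called when only those genotypes were fitted (adjusted p = 0.0447) and without p53-/- B (0.0401). The chip lot recorded for MyoD-/- B and C also held p53-/- A, and within it the difference was 2.22. No wild type array read above the filter level for this probe set. The other probe set, 98386_s_at on U74Av2, read 418, 439 and 542 in wild type, 465, 551 and 545 in MyoD-/- and 379.9, 437 and 388 in p53-/-, with groups that overlapped in MyoD-/- and wild type and a direct knockout difference of 0.32 ± 0.18 (adjusted p = 0.288). The remaining tested pores were not called: Cacna1b, a neuronal pore, had differences of 0.03 and -0.10 on its 2 probe sets in MyoD-/- minus wild type, and Cacna1i, a T-type pore, had 0.35. Cacna1h, a T-type pore, was not tested and read 54.7 to 156 over 9 arrays.

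**Figure D2:**
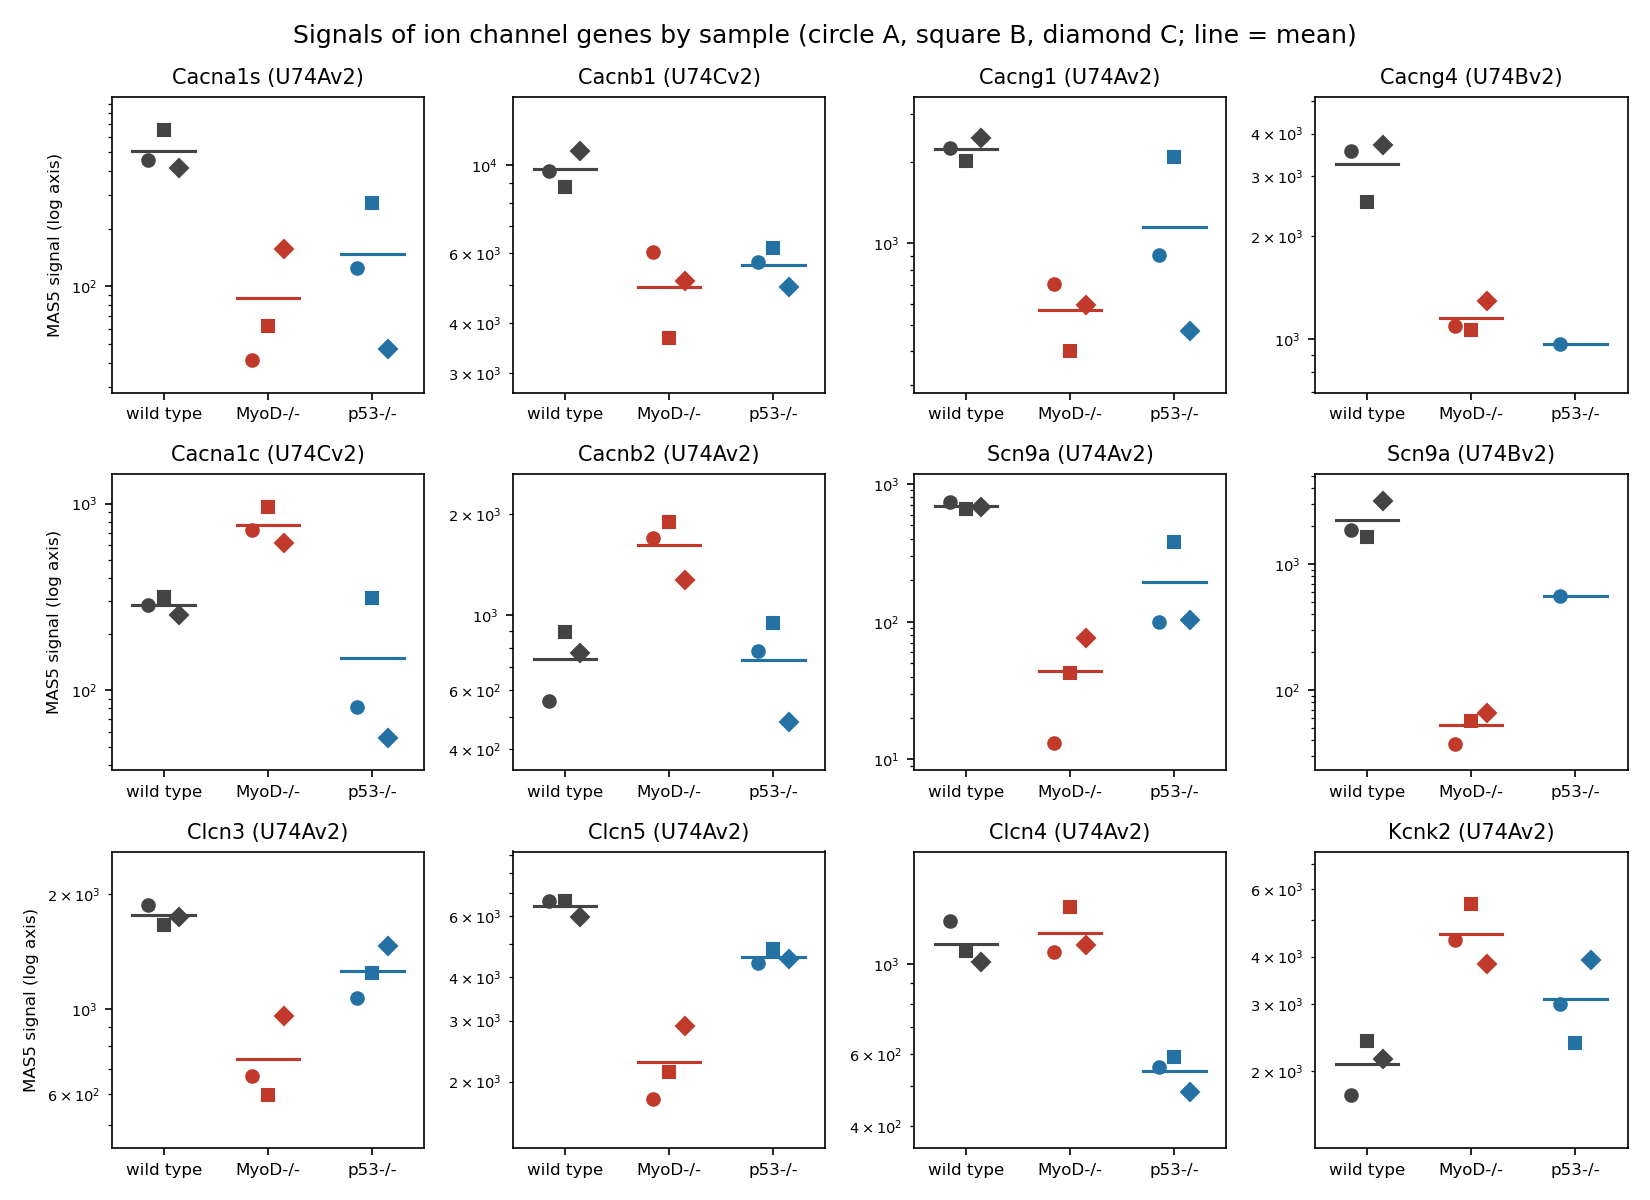
MAS5 signal (log axis) of 12 channel probe sets in each sample, by genotype; circles, squares and diamonds are samples A, B and C and lines are means. Cacna1s, Cacnb1, Scn9a, Clcn3 and Clcn5 are lower in every MyoD-/- array than in every wild type array, Clcn4 is low in the p53-/- arrays, and Cacnb2, Cacna1c and Kcnk2 are highest on average in MyoD-/-. U74Bv2 has 1 p53-/- array.

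Calcium channel auxiliary subunits, grouped by symbol, had 11 of 19 probe sets tested. In MyoD-/- 3 were called lower and 1 higher, where 10.6% of all probe sets were called. In p53-/- 1 of 6 tested was called, lower, where 10.1% of all were. Cacnb1, the beta subunit of the skeletal muscle channel (chromosome 11, probe set 165763_r_at on U74Cv2), read 9659, 8794 and 10826 in wild type, 6050, 3664 and 5118 in MyoD-/- and 5694, 6190 and 4924 in p53-/-. All knockout arrays were below the wild type arrays, and the knockouts overlapped each other. The differences were -0.99 ± 0.19 (adjusted p = 0.00786) in MyoD-/- and -0.79 ± 0.19 (adjusted p = 0.026) in p53-/-. The p53-/- call was lost without any of wild type A, B or C or p53-/- A or C (adjusted p = 0.0752, 0.0515, 0.0892, 0.0712 and 0.0854), and with eBayes without a trend (0.0617). On U74Cv2 the wild type arrays share a chip lot with no knockout array whose lot is recorded, and the lot of MyoD-/- A is not recorded, so lot and genotype cannot be told apart against wild type over the arrays with a known lot. Within the lot of MyoD-/- B and C and p53-/- A, MyoD-/- minus p53-/- was -0.39.

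Cacng1, the gamma subunit of that channel in skeletal muscle (chromosome 11), read 2237, 2002 and 2439 in wild type, 709, 401 and 592 in MyoD-/- and 908, 2076 and 474 in p53-/-. The MyoD-/- arrays were all below wild type, while p53-/- B read like wild type and p53-/- C read among the MyoD-/- values. The difference was -1.88 ± 0.40 (adjusted p = 0.0128) in MyoD-/- and, not called, -1.13 ± 0.40 (adjusted p = 0.103) in p53-/-. Without MyoD-/- B the first lost its call (adjusted p = 0.0555), and without p53-/- B the second was -1.66 (adjusted p = 0.0102). Without p53-/- C the direct difference, -0.75 ± 0.40 (adjusted p = 0.272), was called at -1.22 (adjusted p = 0.0486).

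Cacng4, a gamma subunit known in brain as a partner of glutamate receptors (chromosome 11, probe set 113873_at on U74Bv2), read 3549, 2523 and 3696 in wild type, 1093, 1064 and 1296 in MyoD-/- and 969 in p53-/- A. MyoD-/- and the lone p53-/- array were all below wild type. The MyoD-/- difference was -1.38 ± 0.18 (adjusted p = 0.0016). On U74Bv2, MyoD-/- A was scanned on the same day as wild type B and C, and between these the difference was -1.37. The p53-/- array was scanned on a day with no wild type array of that type. Scan day and genotype therefore cannot be told apart between it and wild type. The p53-/- array was -1.59 ± 0.25 (adjusted p = 0.0161) from wild type if it is taken to vary as the other groups do, one of 2 channel probe sets called among 18 on that array type, where 3.67% of all probe sets were. A further Cacng4 probe set, 109790_at, was not tested and read 88.3 to 114. Both Trp53 and the genes Cacnb1, Cacng1 and Cacng4 lie on chromosome 11, and Myod1 lies on chromosome 7.

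Cacnb2, the beta subunit that prevails in heart (chromosome 2, probe set 100757_at on U74Av2), went the other way. It read 556, 893 and 772 in wild type, 1695, 1891 and 1272 in MyoD-/- and 782, 949 and 481 in p53-/-. MyoD-/- arrays were above all others, and p53-/- overlapped wild type. The differences were 1.07 ± 0.25 (adjusted p = 0.0223) for MyoD-/- minus wild type, 1.10 ± 0.25 (adjusted p = 0.0178) for MyoD-/- minus p53-/-, and -0.03 ± 0.25 (adjusted p = 0.966) for p53-/- minus wild type. The first was not called without wild type A, MyoD-/- A or MyoD-/- B (adjusted p = 0.0865, 0.0602 and 0.0877) or with scan day as a block (0.067), and the second without MyoD-/- B or p53-/- C (0.0719 and 0.0557). Within the shared scan day MyoD-/- minus wild type was 1.03.

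The alpha-2-delta subunit Cacna2d1, which brings the pore to the cell surface, was not called on any of 3 probe sets. Its U74Av2 probe set 104510_at read 637, 754 and 667 in wild type, 479, 819 and 545 in MyoD-/- and 345, 610.1 and 439 in p53-/-. MyoD-/- overlapped wild type, and the p53-/- arrays lay just below it, with a difference of -0.53 ± 0.24 (adjusted p = 0.195). On U74Bv2, MyoD-/- minus wild type was 0.15 and 0.08 for its probe sets 115657_at and 163248_at, with 95% intervals of -0.36 to 0.66 and -0.45 to 0.60. The other tested subunits Cacna2d2, Cacng2, Cacng5 and Cacng8 lay between -0.41 and 0.17 in MyoD-/- minus wild type, none called.

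The upstream sequences of Cacna1s, which fell in both knockouts, and of the 2 annotated starts of Cacnb2, which rose in MyoD-/-, are shown because MyoD binds the E-box CANNTG, and the Scn9a sequence because that gene had the largest fold change of the channel probe sets. Each is the 250 bases before a start site from RefSeq (GRCm38.p6), 5′ to 3′ on the gene's strand, with CANNTG in capitals.
Cacna1s, chr1:136052561-136052810, plus strand: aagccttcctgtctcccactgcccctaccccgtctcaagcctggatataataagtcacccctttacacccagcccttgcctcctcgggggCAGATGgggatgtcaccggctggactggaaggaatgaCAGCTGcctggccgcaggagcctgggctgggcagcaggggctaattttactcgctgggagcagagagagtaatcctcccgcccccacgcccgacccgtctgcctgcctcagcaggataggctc
Cacnb2 start 1, chr2:14604056-14604305, plus strand: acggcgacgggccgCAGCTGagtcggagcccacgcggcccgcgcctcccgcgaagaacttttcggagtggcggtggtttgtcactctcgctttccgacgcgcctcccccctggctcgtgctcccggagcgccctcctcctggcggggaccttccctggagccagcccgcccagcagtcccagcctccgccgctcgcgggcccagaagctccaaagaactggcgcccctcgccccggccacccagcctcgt
Cacnb2 start 2, chr2:14823842-14824091, plus strand: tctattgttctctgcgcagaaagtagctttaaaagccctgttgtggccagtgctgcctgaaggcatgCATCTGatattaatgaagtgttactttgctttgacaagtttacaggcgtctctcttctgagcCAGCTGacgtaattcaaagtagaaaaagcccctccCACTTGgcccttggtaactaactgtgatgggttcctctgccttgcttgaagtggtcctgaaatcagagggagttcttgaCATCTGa
Scn9a, chr2:66634963-66635212, minus strand: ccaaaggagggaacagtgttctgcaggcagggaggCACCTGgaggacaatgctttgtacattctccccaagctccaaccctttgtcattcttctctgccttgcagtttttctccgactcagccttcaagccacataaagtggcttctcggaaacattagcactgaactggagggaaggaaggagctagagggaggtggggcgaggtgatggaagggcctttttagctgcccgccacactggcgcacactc
The Cacna1s sequence held CANNTG at -160 and -123, the second being CAGCTG, and the Scn9a sequence held it at -215, where it reads CAGGTG on the other strand. Cacnb2 had 1 match before its first start and 4 before its second, with CAGCTG once in each. The motifs searched on both strands were CANNTG and its forms with GC (CAGCTG) or with GG (CAGGTG) as the middle bases. RefSeq entries were matched for 85 of the 110 genes, with none for Cacng1 or Cacng4. CANNTG was present in 66.2% of all 32851 sequences of this length and in 61.4% of the 70 sequences of genes with a tested channel probe set. For genes called in MyoD-/-, it was present in 6 of 8 sequences from 5 genes called lower. It was also in 5 of 6 sequences from 2 genes called higher. For CAGCTG the figures were 13.0%, 15.7%, 2 of 8 and 4 of 6. For CAGGTG they were 17.2%, 20.0%, 2 of 8 and 0 of 6. A match is a run of letters and does not show binding.

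Sodium pores had 6 of 17 probe sets tested, of 3 genes, and the calls were all of Scn9a. Scn9a, a sodium channel known from peripheral sensory and sympathetic neurons (chromosome 2), had a probe set on each of 2 arrays. On U74Av2, 100670_at read 744, 661 and 684 in wild type, 13.2, 42.4 and 76.2 in MyoD-/- and 98.9, 379.5 and 104 in p53-/-. On U74Bv2, 105800_at read 1846, 1649 and 3192 in wild type, 37.4, 56.5 and 65.6 in MyoD-/- and 559 in p53-/- A. On both arrays every MyoD-/- value was below every other, and the p53-/- values lay between MyoD-/- and wild type. MyoD-/- minus wild type was -2.82 ± 0.40 (adjusted p = 0.00134) and -3.52 ± 0.28 (adjusted p = 0.000119), and the second was -3.74 within the scan day that held MyoD-/- A and wild type B and C. Both calls held under every alternative run, but the size moved with the offset: no MyoD-/- array was above the filter level on either, and with an offset of 1 they were -4.26 and -5.34.

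In p53-/- Scn9a was called on U74Av2 (-1.71 ± 0.40, adjusted p = 0.0221). The lone U74Bv2 array, scanned on a day with no wild type array of that type, gave -1.70 ± 0.39. That difference was not called, and its SE assumes that the single array varies like the other groups. The U74Av2 call was lost with an offset of 1 (adjusted p = 0.0872) and without any of wild type A, B or C or p53-/- A or C (0.0796, 0.0629, 0.0622, 0.081 and 0.0745). The difference between the knockouts on U74Av2 was not called (-1.11 ± 0.40, adjusted p = 0.0991), but was with quantile normalization (adjusted p = 0.0397). The brain sodium pores Scn2a and Scn8a had 2 tested probe sets each and none was called. For Scn8a, 138007_at read 5428, 4830 and 4627 in wild type, 3593, 5545 and 4592 in MyoD-/- and 4326, 3048 and 5602 in p53-/-, and the genotypes overlapped, with differences from wild type of -0.13 in MyoD-/- and -0.23 in p53-/-. For Scn2a, 131856_at varied from 376 to 2528 and spread widely within each genotype.

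Sodium auxiliary subunits were not called by limma on any of 4 tested probe sets in MyoD-/- or 2 in p53-/-. Of all probe sets, 10.6% and 10.1% were called. In MyoD-/- 1 of the 4 had an unadjusted p under 0.05, a level at which all probe sets were not counted. Scn3b, a beta subunit, read 3228, 2989 and 5061 in wild type, 1465, 1809 and 1285 in MyoD-/- and 2094, 319 and 1529 in p53-/- on its probe set 166913_at. All knockout arrays were below the wild type arrays, and p53-/- B was the lowest. The differences were -1.22 ± 0.50 (adjusted p = 0.166) and -1.71 ± 0.50 (adjusted p = 0.057) from wild type. Its other probe set, 133130_at, overlapped between genotypes, with -0.40 and -0.22. Scn4b, a beta subunit, had 0.36 and 0.14 in MyoD-/- on U74Bv2.

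The CLC family had 12 of 15 probe sets tested, covering all 7 of its genes. In MyoD-/- 5 were called lower and 0 higher, of Clcn3 and Clcn5, where 5.66% of all probe sets were called lower. In p53-/- 2 of 11 tested were called lower and 0 higher, of Clcn4, where 5.35% of all were called lower. Clcn3, an endosomal chloride-proton exchanger (chromosome 8), was lower in MyoD-/- on all 4 probe sets. Probe set 94464_at read 1879, 1663 and 1744 in wild type, 669.6, 598 and 964 in MyoD-/- and 1071, 1248 and 1465 in p53-/-, with MyoD-/- minus wild type at -1.20 ± 0.19 (adjusted p = 0.00222). Its neighbours 94465_g_at, 102786_at and 94463_at had -1.01, -1.02 and -0.85 (adjusted p = 0.00286, 0.017 and 0.0132). On none of the 4 did a MyoD-/- array reach a wild type array. These probe sets share a gene and are not independent. Within the shared scan day the 4 differences ran from -1.14 to -0.76.

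The p53-/- arrays lay below wild type on all 4 Clcn3 probe sets but were not called (-0.47, -0.38, -0.54 and -0.30). The p53-/- arrays lay above MyoD-/- on 3 of them and overlapped MyoD-/- on 102786_at, whose p53-/- minus wild type difference was called when only those genotypes were fitted (adjusted p = 0.0381). MyoD-/- was lower than p53-/- on 94464_at (-0.73 ± 0.19, adjusted p = 0.0276) and 94465_g_at (-0.63 ± 0.16, adjusted p = 0.0285). Both direct calls were lost without MyoD-/- B, p53-/- B or p53-/- C (adjusted p = 0.101, 0.0637 and 0.0946 for the first and 0.101, 0.0804 and 0.0797 for the second), and the first also without MyoD-/- A (0.071). They were lost too when only the knockouts were fitted (0.0614 and 0.06), the first with scan day as a block (0.0728) and the second without the filter (0.0512). With quantile normalization the direct difference on 94463_at was called (0.0357). Against wild type, 102786_at was not called without wild type A, wild type C or MyoD-/- B (0.0568, 0.0561 and 0.0558), nor 94463_at without MyoD-/- B (0.0538). Without MyoD-/- C, MyoD-/- minus p53-/- on 102786_at was -0.74 (0.0338), against -0.48 with it.

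Clcn5, the endosomal exchanger that underlies Dent disease in human kidney (X chromosome, probe set 101913_at on U74Av2), read 6652, 6643 and 5971 in wild type, 1786, 2133 and 2893 in MyoD-/- and 4405, 4827 and 4524 in p53-/-. The 3 genotypes did not overlap: wild type was highest, p53-/- between and MyoD-/- lowest. The difference was -1.50 ± 0.16 (adjusted p = 0.000256) in MyoD-/- and -1.02 ± 0.16 (adjusted p = 0.00276) between MyoD-/- and p53-/-. For p53-/- minus wild type it was -0.48 ± 0.16 (adjusted p = 0.092), which was called without MyoD-/- A or without MyoD-/- C (adjusted p = 0.0431 and 0.0395), with scan day as a block (0.0449) and when only those genotypes were fitted (0.0256). Another Clcn5 probe set, 161451_r_at, was not tested and read 69.1 to 394.

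Clcn4, also an endosomal exchanger (chromosome 7), was lower in p53-/- than in wild type and than in MyoD-/-. Probe set 99672_at read 1281, 1080 and 1011 in wild type, 1074, 1385 and 1119 in MyoD-/- and 559, 591 and 483 in p53-/-. All p53-/- arrays were below all others, and MyoD-/- overlapped wild type. The differences were -0.96 ± 0.16 (adjusted p = 0.0049) for p53-/- minus wild type, 1.04 ± 0.16 (adjusted p = 0.00237) for MyoD-/- minus p53-/-, and 0.08 ± 0.16 (adjusted p = 0.831) for MyoD-/- minus wild type, the last with a 95% interval of -0.28 to 0.44. The second probe set, 104704_at, read 932, 1068 and 922 in wild type, 867, 919.9 and 886 in MyoD-/- and 414, 475 and 664 in p53-/-. It gave -0.85 ± 0.18 (adjusted p = 0.0134) for p53-/- minus wild type and 0.73 ± 0.18 (adjusted p = 0.0211) between the knockouts. These were lost without wild type B or p53-/- A (adjusted p = 0.0557 and 0.0525), and without MyoD-/- B, MyoD-/- C, p53-/- A or p53-/- B (0.0699, 0.0568, 0.0778 and 0.0581).

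Clcn1, the chloride channel of the muscle fibre surface, had signals in the other direction on its tested probe set that were not called. Probe set 95376_at read 287, 275 and 82.1 in wild type, 535, 441 and 316 in MyoD-/- and 402, 728 and 327 in p53-/-. The knockout arrays were above the wild type arrays, and wild type C was the lowest, with differences of 0.90 ± 0.38 (adjusted p = 0.176) and 1.01 ± 0.38 (adjusted p = 0.125). This probe set passed the filter through knockout arrays alone, with 0 wild type arrays above the filter level. Another Clcn1 probe set, 102622_r_at, was not tested and read 20.7 to 148, and each knockout overlapped wild type on it. Clcn7, the lysosomal exchanger, was not called on its 2 probe sets: 104391_s_at gave -0.15 in MyoD-/- and -0.15 in p53-/-, with 95% intervals of -0.48 to 0.19 and -0.48 to 0.19. The other, 104392_at, read 1013, 669.8 and 593 in wild type, 852, 769 and 836 in MyoD-/- and 616, 521 and 387 in p53-/-, with -0.51 ± 0.22 (adjusted p = 0.179) for p53-/- minus wild type, whose arrays overlapped, and 0.64 ± 0.22 (adjusted p = 0.0841) for MyoD-/- minus p53-/-, whose arrays did not. The late endosomal Clcn6 read 879.9, 864 and 1050 in wild type, 1228, 1428 and 1242 in MyoD-/- and 1282 in p53-/- A, with 0.43 ± 0.16 (adjusted p = 0.146) in MyoD-/-. The broadly expressed plasma membrane channel Clcn2 had -0.28 ± 0.28 (adjusted p = 0.615) in MyoD-/- and -0.57 ± 0.28 (adjusted p = 0.239) in p53-/-.

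**Figure D3:**
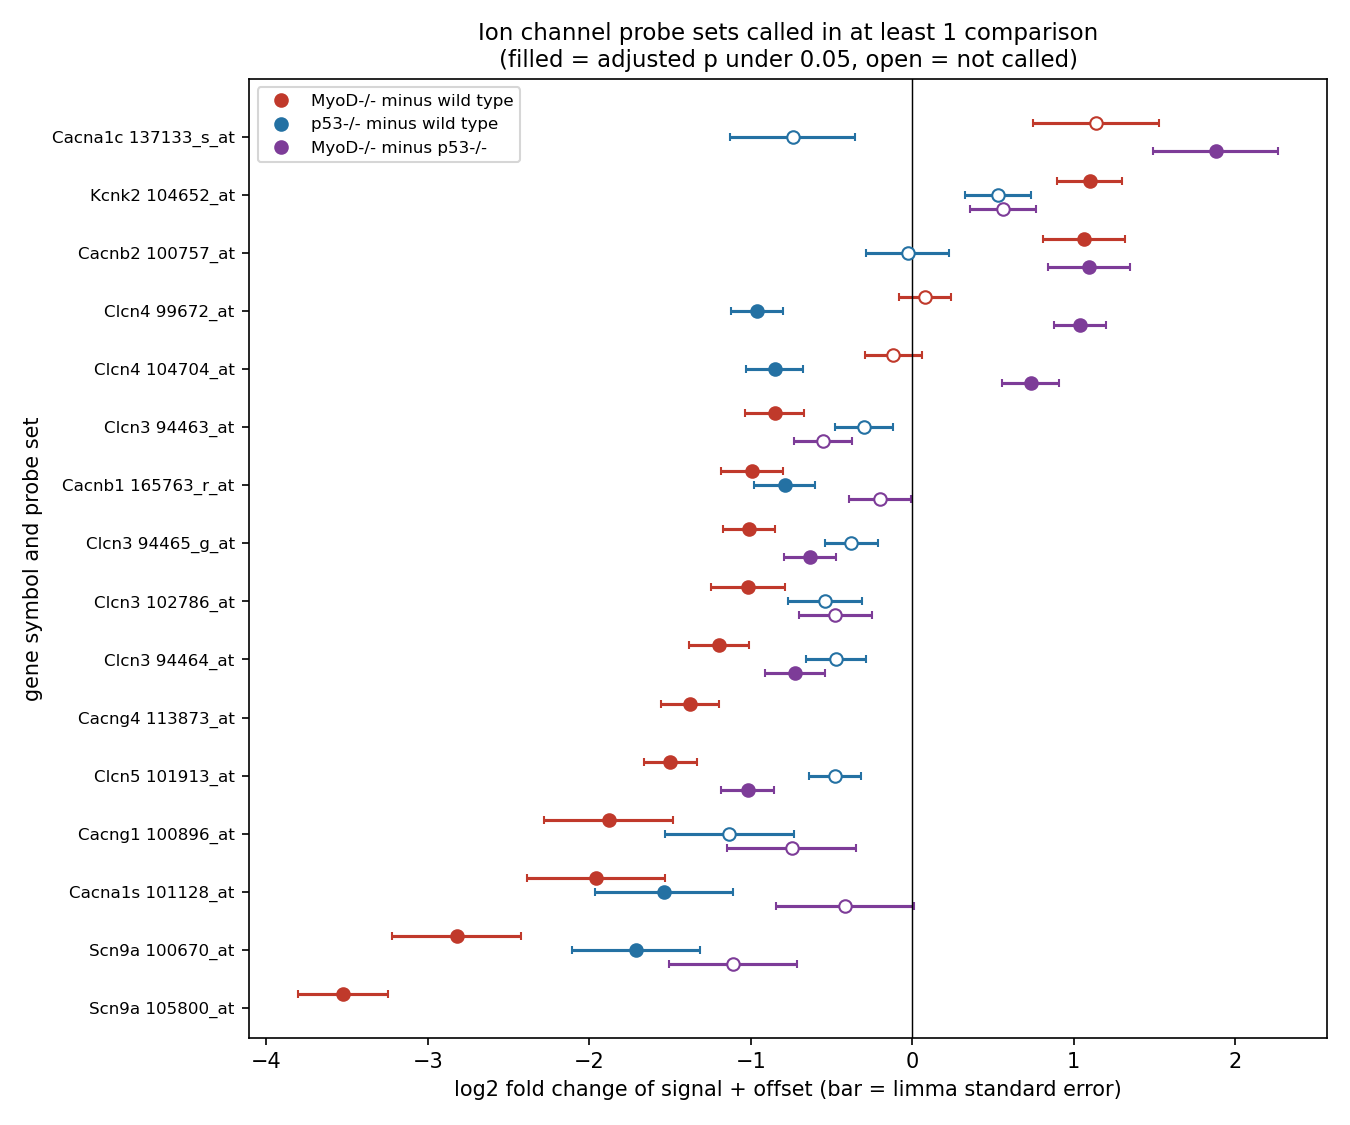
Log2 fold change of signal plus offset (horizontal axis, bars are limma standard errors) of the 16 channel probe sets called in at least 1 comparison, for the 3 comparisons; filled points passed an adjusted p under 0.05. The 2 Clcn4 probe sets are near 0 in MyoD-/- minus wild type and below 0 in p53-/- minus wild type, while the 4 Clcn3 probe sets and Clcn5 are lowest in MyoD-/-.

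Among potassium channels 1 gene was called. Kcnk2, a tandem-pore leak channel opened by stretch, heat and lipids (chromosome 1, probe set 104652_at on U74Av2), read 1732, 2393 and 2158 in wild type, 4419, 5481 and 3821 in MyoD-/- and 3009, 2376 and 3914 in p53-/-. MyoD-/- was above wild type on every array, and p53-/- overlapped both. It rose in MyoD-/- (1.10 ± 0.20, adjusted p = 0.00655), with 0.53 ± 0.20 (adjusted p = 0.131) for p53-/- minus wild type and 0.56 ± 0.20 (adjusted p = 0.102) between the knockouts. Within the shared scan day the MyoD-/- difference was 1.12, and the call held under all 20 alternatives.

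The other 8 tested tandem-pore probe sets were not called. Kcnk5, an acid-sensitive leak channel, read 961, 1358 and 1647 in wild type, 864, 579 and 863 in MyoD-/- and 4804 in p53-/- A on U74Bv2. MyoD-/- lay below wild type (-0.67 ± 0.22, adjusted p = 0.0988), and the single p53-/- array was above all 6 others. It was scanned on a day with no wild type array of that type, so scan day and genotype cannot be told apart against wild type. Within that day MyoD-/- B and C minus p53-/- A was -2.53. That array differed from wild type by 1.78 ± 0.32 (adjusted p = 0.0239) if it is assumed to vary like the other groups, and no other p53-/- sample was analysed on that array type. Kcnk1 gave -0.37 in MyoD-/- and -0.19 in p53-/-, and Kcnk4, Kcnk3 and Kcnk7 lay between -0.19 and 0.08 in MyoD-/-.

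Of 44 probe sets for voltage-gated potassium pores 17 were tested. Limma called none in MyoD-/- and none of 14 in p53-/-, against 10.6% and 10.1% of all probe sets. In each knockout 1 had an unadjusted p under 0.05, a level at which all probe sets were not counted. The unadjusted value in MyoD-/- belonged to Kcnc1, a fast delayed rectifier, whose probe sets did not move together. On 137979_at it read 1472, 1046 and 889 in wild type, 313, 347 and 732 in MyoD-/- and 859.5, 489 and 325 in p53-/-, below wild type in every knockout array, with -1.17 ± 0.38 (adjusted p = 0.0837) and -0.96 ± 0.38 (adjusted p = 0.151). On 138056_r_at it read 14321, 16209 and 14785 in wild type, 15832, 18770 and 16434 in MyoD-/- and 19889, 18895 and 15857 in p53-/-, with overlapping MyoD-/- and wild type arrays and 0.17 ± 0.13 (adjusted p = 0.515). The third, 103208_at, gave -0.42.

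Kcnh1, the ether-a-go-go channel, read 836, 1079 and 494 in wild type, 1483, 1700 and 649 in MyoD-/- and 853, 1050 and 880.2 in p53-/-. Its genotypes overlapped, with 0.56 ± 0.37 (adjusted p = 0.402) in MyoD-/- and 0.24 ± 0.37 (adjusted p = 0.757) in p53-/-. For Kcnh2, the channel of cardiac repolarisation, differences from wild type were 0.08 and -0.16, with 95% intervals of -0.33 to 0.50 and -0.57 to 0.26. Kcnq1, a slow delayed rectifier, gave -0.18 and -0.21, Kcnq5 -0.08 and 0.17, and Kcna5 0.07 and 0.09. Kcnc4, measured on U74Bv2, had -0.34 in MyoD-/-. Kcnd3 was not tested on any of its 3 probe sets.

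Inward rectifiers had the lowest share tested, 5 of 25 probe sets. None was called, against 10.6% of all probe sets in MyoD-/- and 10.1% in p53-/-. At an unadjusted p under 0.05 there were 0 in MyoD-/- and 2 in p53-/-, with all probe sets not counted at that level. Kcnj2, the main inward rectifier of muscle membrane, read 1089, 1473 and 1572 in wild type, 859, 1100 and 1292 in MyoD-/- and 691, 782 and 946 in p53-/-. The p53-/- arrays were all below wild type, and MyoD-/- overlapped both. The differences were -0.70 ± 0.25 (adjusted p = 0.106) in p53-/- and -0.32 ± 0.25 (adjusted p = 0.498) in MyoD-/-. Kcnj11, the pore of the ATP-sensitive channel, overlapped between genotypes, with 0.22 and 0.08. Kcnj12 was below the filter and read 215, 483 and 294 in wild type, 56.4, 263 and 68.2 in MyoD-/- and 108, 112 and 80.0 in p53-/-, with MyoD-/- B inside the wild type range and the other knockout arrays below it. Kcnj8, a vascular ATP-sensitive pore, read 21.3 to 137 and was not tested.

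Calcium- and sodium-activated potassium channels had 8 of 15 probe sets tested, 7 of them in p53-/-. None was called, against 10.6% of all probe sets in MyoD-/- and 10.1% in p53-/-. In each knockout 1 had an unadjusted p under 0.05, with all probe sets not counted at that level. Kcnn4, the intermediate-conductance channel, read 1272, 963 and 1808 in wild type, 2285, 2224 and 1674 in MyoD-/- and 1458, 1940 and 997 in p53-/- on 102198_at. Its MyoD-/- arrays overlapped wild type C, with 0.62 ± 0.27 (adjusted p = 0.183) in MyoD-/- and 0.11 ± 0.27 (adjusted p = 0.855) in p53-/-. The large-conductance pore Kcnma1 gave -0.09 on U74Av2 and 1.005 (SE 0.58) on U74Cv2 in MyoD-/-, the latter with wild type arrays from 238 to 1625. Kcnn2, a small-conductance channel, gave -0.26 and 0.24. Kcnmb4, a beta subunit of the large-conductance channel, had -0.66 ± 0.28 (adjusted p = 0.176) in p53-/-.

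Potassium auxiliary subunits were tested on 5 of 15 probe sets, 4 of them in p53-/-. Limma called none, against 10.6% of all probe sets in MyoD-/- and 10.1% in p53-/-. In either knockout 0 had an unadjusted p under 0.05, with all probe sets not counted at that level. Kcnip3, a calcium-binding protein that also acts as a transcriptional repressor, read 3606, 4319 and 3666 in wild type, 3710, 3565 and 3920 in MyoD-/- and 4846 in p53-/- A. Its MyoD-/- difference of -0.04 had a 95% interval of -0.34 to 0.25. Kcnab2 gave -0.52 with an SE of 0.54. Kcnab1, Kcne3 and Kcne4 were not tested. Of the non-coding RNAs, the imprinted antisense Kcnq1ot1 read 314, 336 and 359.5 in wild type, 191, 397 and 231 in MyoD-/- and 175, 20.6 and 114 in p53-/-. The p53-/- arrays were below wild type, with -1.15 ± 0.38 (adjusted p = 0.085) in p53-/-.

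The 99 untested channel probe sets left 45 genes with no tested value, and the array cannot show whether these are absent or below its reach. They included the pores of brain calcium channels Cacna1a and Cacna1e, the neuronal sodium pores Scn1a, Scn3a and Scn10a, and 20 of 25 inward rectifier probe sets.

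Partners of the channels were read from lists of related genes, 1 probe set per gene. Of 20 tested calcium release and store genes, 7 fell and 3 rose in MyoD-/-, and of 14, 4 fell and 1 rose in p53-/-. For this and the following lists, the share of all probe sets called was 10.6% in MyoD-/- and 10.1% in p53-/-. Ryr1, the release channel that Cacna1s gates, read 1506, 2174 and 1568 in wild type, 22.7, 53.9 and 32.6 in MyoD-/- and 176, 223.5 and 72.0 in p53-/-. No arrays overlapped, and the Ryr1 differences from wild type were -4.13 ± 0.31 (SE) in MyoD-/- and -3.07 ± 0.31 in p53-/- (adjusted p = 3.16e-05 and 0.000631). Ryr1 passed the filter through its wild type arrays alone. Stac3, an adaptor of the voltage sensor, differed by -4.90 in MyoD-/- (adjusted p = 1.05e-05). The inositol trisphosphate receptors Itpr2 and Itpr3 rose in MyoD-/- by 1.002 and 1.029 (0.0133 and 0.00413).

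Of 16 other chloride channels and regulators tested, 4 rose and 2 fell in MyoD-/-, and 1 of 9 fell in p53-/-. Ano5, a muscle anoctamin, fell in both knockouts, with -3.05 ± 0.34 and -2.64 ± 0.34 (adjusted p = 0.000265 and 0.00143), and passed the filter through its wild type arrays alone. Ano1, a calcium-activated chloride channel, read 206.5, 72.1 and 199 in wild type and 1880, 3230 and 2981 in MyoD-/- on U74Bv2, with a difference of 3.22 ± 0.29 (adjusted p = 0.000205). It passed the filter through its MyoD-/- arrays alone. Of 22 other cation channels 1 rose (P2rx4) and 1 fell (Tpcn1) in MyoD-/-, and of 15, 1 rose in p53-/- (P2rx1), shares near those of all probe sets. Of 6 sodium-potassium pump genes 1 rose in MyoD-/- (Fxyd5), and of 5, 1 fell in p53-/- (Fxyd1). Among 16 anchors and scaffolds, 4 fell in MyoD-/- (Sntb1, Fgf11, Nedd4l and Rrad, the last an inhibitor of calcium channels), and among 15, Sntb1 fell and Gem, also an inhibitor of calcium channels, rose in p53-/-.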

How the data were processed

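RNA of 9 myoblast samples was measured on 25 arrays. The deposited intensity values are MAS5 signals that the authors computed per array, per the submitters' processing notes. Chip lot and scan day were read from the deposited text records of the arrays, which hold no expression values. Samples were grouped by the genotype in the labels. Each array type was fitted with limma 3.58.1 in R 4.3.3 on log2 of signal plus the 20th percentile (67.0, 145.7 and 106.6 for U74Av2, U74Bv2 and U74Cv2), with genotype only and all its arrays, eBayes with a trend, and Benjamini-Hochberg adjustment over all array types. A threshold of 0.05 and a filter of 3 arrays above the 40th percentile were used. The number of arrays limits the precision. The fits were tested on simulated data. All called channel probe sets and those of a fixed list of genes are named, apart from some genes not reported here, and other genes were named after their values were seen. The gene rule, lists and tests were chosen with earlier results of these data known. Symbols come from the platform annotation, and all 184 probe sets matched the RefSeq gene table. Alternatives were another offset, floor, filter, normalization or variance model, fewer genotypes, replicate, scan day or chip lot as a block, and leaving out each sample. One U74Cv2 array of MyoD-/- titled B is recorded under letter A in its array record, and the title was followed.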

Additional observations from a re-analysis of the deposited data

Results flagged for a closer look

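Kcnk5 read 4804 on the only p53-/- array of U74Bv2, an array type on which p53-/- has no replicate, above the control signals of 961, 1358 and 1647 in wild type. It was picked out because the signal stands above the controls in data outside the main measurement. No second p53-/- array of that type was analysed here, and no wild type array of that type was scanned on the same day.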

How the results depend on the processing

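Called differences of named probe sets numbered 25, and all 25 kept their direction under every alternative that could be run, while 12 also kept their call. Of 93 uncalled differences, 8 were called under some alternative. For MyoD-/- against wild type the count of 13 channel probe sets ran from 9 to 15 when 1 sample was left out. For p53-/- against wild type the count of 5 became 3 with an offset of 1 and 3 with a filter at the 60th percentile, and it ran from 1 (without wild type B) to 7 (without p53-/- B) when 1 sample was left out, with 2 without wild type A, wild type C, p53-/- A or p53-/- C. For MyoD-/- against p53-/- the count of 7 ran from 3 (without MyoD-/- B) to 7, with 4 without p53-/- B. The cause was not tested. Same-letter samples did not deviate together (correlations from -0.12 to 0.127 over 21 pairs), and the main fits did not pair samples by letter. The correlations cannot show whether same-letter samples were prepared together. With the letter as a replicate block the counts were 13, 4 and 7, and Cacna1s in p53-/- was not called (adjusted p = 0.0618). Dim probe sets and 3 arrays per genotype limit what could be called.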
